A study of Homo sapiens with 10 samples.

Results

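The ERBB receptor family consists of *EGFR*, *ERBB2*, *ERBB3* and *ERBB4*. These 4 genes were chosen by symbol from the 19695 genes of the count tables from T47D, an established human breast cancer cell line of the luminal type, and TRPS1 peaks at their loci were taken from a ChIP-seq experiment in the same cells. ChIP-seq recovers the DNA bound by a protein. It was done with TRPS1 antibodies in 2 libraries beside 2 input libraries and gave 1 list of 1844 peaks. RNA-seq covered T47D cells that had received siRNA against *TRPS1*, siRNA against *CHD4* or a control siRNA, with 2 libraries each and RNA taken 72 h after transfection. All libraries came from this single cell line without other alleles or agents, silencing was transient, and the sources used here do not state whether the 2 libraries of a group came from separate cultures, so p-values measure only the spread between these libraries, which may be technical.

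ERBB receptors are cell surface tyrosine kinases that pair with themselves or with each other when a growth factor binds. *EGFR* binds EGF, TGF-alpha, amphiregulin and related ligands. *ERBB2* has no known ligand of its own and is the preferred partner of the other receptors, and it is the gene amplified in HER2-positive breast cancer. *ERBB3* binds neuregulins, has little kinase activity and couples strongly to PI3K. *ERBB4* binds neuregulins as well, and its intracellular domain can be cut off and move to the nucleus with STAT5. Downstream of the receptors, the RAS-MAPK and PI3K-AKT branches carry the signal, and Sprouty and DUSP proteins, themselves induced by the MAPK branch, dampen it. TRPS1 is a GATA-type zinc finger repressor that binds WGATAR elements, where W is A or T and R is A or G, and CHD4 is the ATPase of the NuRD remodeling complex. The comparisons below address whether the ERBB genes carry TRPS1 at their loci and whether their transcripts differ when TRPS1 or CHD4 is silenced.

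The windows upstream of the receptor starts were examined first, because GATA elements are the sequences TRPS1 is known to read. RefSeq windows of GRCh38.p14 were at hand for 3 of the 4 receptors, and *ERBB3* had no entry. The 250 bases before the start of *EGFR* and of *ERBB4* held no GATA or TATC, and neither did those of *ERBB2*, which are not printed. The windows of *EGFR* and *ERBB4* are printed because both receptors are annotated to start there while the nearest TRPS1 peak lay far away. *EGFR* has a second annotated start inside its span, and the window before it is shown because it held 3 matches, written in capitals, of which 1 pair overlaps as GATATC. One of the 3 matches is part of a WGATAR element, that is AGATAA with T allowed as its first letter and G as its last, on either strand. Such an element was present in 22.3% of the 35116 windows of this length in the table and GATA on either strand, that is GATA or TATC, which every WGATAR element contains, in 45.6%. A match is a description of the letters and not a site.
EGFR, main start, chr7:55018767-55019016, plus strand: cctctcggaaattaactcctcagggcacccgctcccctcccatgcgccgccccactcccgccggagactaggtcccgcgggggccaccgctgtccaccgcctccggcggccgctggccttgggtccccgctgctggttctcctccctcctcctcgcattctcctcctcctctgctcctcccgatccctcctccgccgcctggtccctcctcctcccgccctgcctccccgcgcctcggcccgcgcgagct
EGFR, second start, chr7:55109589-55109838, plus strand: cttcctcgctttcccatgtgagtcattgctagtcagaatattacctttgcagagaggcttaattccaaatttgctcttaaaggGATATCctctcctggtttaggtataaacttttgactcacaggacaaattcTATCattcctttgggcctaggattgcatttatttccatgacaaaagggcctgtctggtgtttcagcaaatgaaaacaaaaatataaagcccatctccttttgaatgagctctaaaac
ERBB4, chr2:212538803-212539052, minus strand: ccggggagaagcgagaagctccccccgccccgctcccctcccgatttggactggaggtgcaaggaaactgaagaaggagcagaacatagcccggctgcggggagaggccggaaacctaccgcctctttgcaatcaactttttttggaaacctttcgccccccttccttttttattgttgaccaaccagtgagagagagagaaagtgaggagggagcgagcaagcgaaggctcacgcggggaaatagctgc
The main *EGFR* window was the richest in G and C of these, with 73.6%, against 57.2% for *ERBB4* and 38.8% at the second *EGFR* start. The median over the windows in the table was 58.0%.

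Among the receptor genes, *ERBB3* carried a TRPS1 peak at its promoter and *ERBB4* carried peaks inside the gene, whereas the peaks nearest to *EGFR* and *ERBB2* lay far away. Positions are those of build hg38. The *ERBB3* peak, chr12:56079798-56080030, was 233 bp wide and ended 78 bp upstream of the annotated gene start at position 56080108. *ERBB3* spans chr12:56080108-56103505. A peak within 1 kb of the start was present in 2.12% of 15844 protein-coding genes with a known strand, and one within 5 kb in 2.98%. A second peak, chr12:56126068-56126430, lay inside *ZC3H10*, 45.96 kb downstream of the *ERBB3* start, and 10.3% of the genes had a peak within 50 kb.

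*ERBB4* is among the longest protein-coding genes, with a span of 1163086 bp on the minus strand at chr2:211375717-212538802. It contained 2 peaks, and both lay near its 3' end. The first, chr2:211473089-211473985, was 897 bp wide and lay 1065 kb downstream of the start, after 91.6% of the gene. The second, chr2:211435313-211435688, was 376 bp wide and lay at 94.8% of the gene, 59.78 kb before its end. Of all 1844 peaks, 21 were at least as wide as the first of these, against a median width of 288.0 bp. A peak inside the gene was found in 4.04% of 20037 protein-coding genes, but long genes have more room for one. Among the 69 protein-coding genes that span over 1 Mb, 24.6% contained a peak and 10.1% contained 2 or more. *ERBB4* held 1.72 peaks per Mb and these genes 0.292 per Mb when pooled. The annotation used here gives gene spans without exons, so the peaks were not assigned to introns or exons.

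*EGFR* (chr7:55019017-55211628) and *ERBB2* (chr17:39688094-39728658) contained no peak. The nearest peak to the *EGFR* start lay 754.3 kb downstream. Among protein-coding genes with a known strand, the start closest to this peak was that of *SEPTIN14*. The nearest to the *ERBB2* start lay 325.6 kb downstream, and of the same genes *PSMD3* had the closest start, 33.08 kb from the peak. Genes without a known strand were left out of this search and may start closer. The peak list gives positions for all libraries together without heights or replicate calls, so no peak has a replicate error, and a locus without a peak shows only that none was called.

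**Figure D1:**
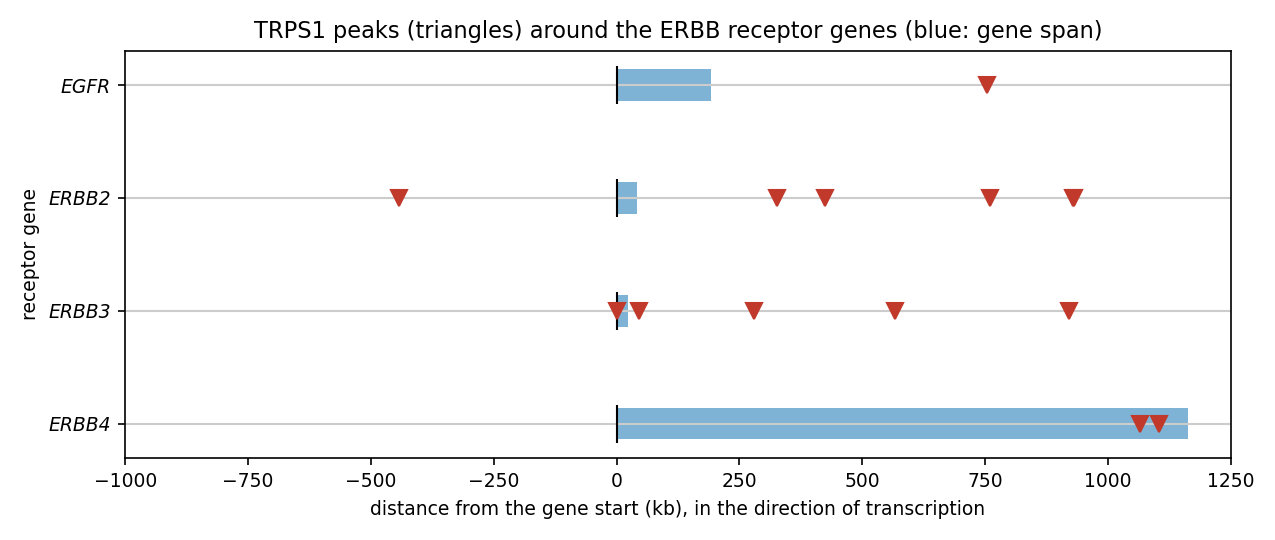
TRPS1 peaks (red triangles) by distance from the annotated start of each ERBB receptor gene in kb, in the direction of transcription, with the gene span in blue. The *ERBB3* start has a peak 0.078 kb upstream, *ERBB4* has 2 peaks near its 3' end, and the nearest peaks to *EGFR* and *ERBB2* lie 754.3 and 325.6 kb away.

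Total counts ranged from 10333138 to 14668358 per RNA-seq library, and 3 counts, the limit of detection, corresponded to 0.197 to 0.288 CPM (counts scaled to library size with TMM factors). In the libraries with *TRPS1* siRNA, the *TRPS1* level was 1166 and 722 CPM against 1445 and 2269 CPM with control siRNA (log2 fold change -0.97 ± 0.39, SE, edgeR adjusted p = 0.659). *TRPS1* itself missed a fold change over 2 with unadjusted p under 0.05 in this fit and met it in 2 of 14 alternatives. *CHD4* was at 95.8 and 54.3 CPM with *CHD4* siRNA against 300.3 and 285 CPM in the controls (-1.96 ± 0.42, adjusted p = 0.784). The control replicate 1 library stood apart from the others. The first principal component, with 63.4% of the variance, was at -114 in this library and between 8.86 and 31.2 in the others, and the correlation of log2 CPM between replicates was 0.880 for control, 0.976 for *TRPS1* and 0.967 for *CHD4* siRNA. Both comparisons with control rest on the same control libraries, so the receptor values and the calls of pathway genes that end without this one are given without it as well. The luminal markers were 9 genes including *ESR1*, *GATA3* and *KRT8*. Their sum was 14711 and 11447 CPM in the controls, 6247 and 6227 CPM with *TRPS1* siRNA and 7074 and 5317 CPM with *CHD4* siRNA. The keratin *KRT8* was the highest of them in the controls, at 5196 and 3336 CPM, against 1075 to 1232 CPM in the silenced cells. Against control, 2 and 3 of the 9 met a fold change over 2 with unadjusted p under 0.05, all lower, as did 3.17% and 2.85% of all genes in that direction. With all libraries in the fit, the called markers were all keratins. *PGR*, another of the 9, was at 674 and 2084 CPM in the controls, and the silenced libraries lay between these values. Its difference therefore depended on the control library. *ESR1* and *GATA3* were at -0.61 and -0.48 with *TRPS1* siRNA and -0.61 and -0.88 with *CHD4* siRNA, short of this rule. In the 2 comparisons, 1 and 2 of the 9 were above control. The basal markers summed to 27.1 and 25.3 CPM in the controls and between 50.3 and 68.9 CPM in the silenced cells. Of the 6 basal genes, the keratins *KRT5* and *KRT14* were at or under 0.44 CPM in all 6 libraries. All 3 tested genes, *TP63*, *ACTA2* and *MYLK*, were higher without overlap in both comparisons with control. So were 22.5% of all genes with *TRPS1* siRNA and 19.8% with *CHD4* siRNA. *TP63* met the same rule in both, with 2.36 and 3.06 on the log2 scale (edgeR adjusted p = 0.659 with *TRPS1* siRNA and adjusted p = 0.792 with *CHD4* siRNA). Fibroblast, leukocyte and endothelial markers summed to 1.13 to 158 CPM. The part of these differences in the receptor values was not tested. In bulk samples, fewer cells of a type and less RNA per cell cannot be told apart.

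With control siRNA, *EGFR* was at 32.8 and 25.9 CPM. It was at 18.9 and 13.3 CPM upon silencing *TRPS1* and at 27.1 and 19.7 CPM upon silencing *CHD4*. The *TRPS1* siRNA libraries were the lowest of all 6 and did not overlap either other group, whereas control and *CHD4* siRNA overlapped.

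*ERBB2* was at 417 and 185 CPM with control siRNA, at 239 and 205 CPM with *TRPS1* siRNA and at 211 and 156 CPM with *CHD4* siRNA. The control replicate 1 library was far above the rest, while control replicate 2 lay within the range of the silenced cells, so that all 3 groups overlapped. *MIEN1*, which overlaps the end of *ERBB2*, had a like pattern, with 57.1 and 14.9 CPM in the controls and 12.3 to 18.6 CPM in the silenced cells.

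*ERBB3* was at 926 and 652 CPM with control siRNA and at 618 and 393 CPM with *TRPS1* siRNA. With *CHD4* siRNA it was at 953 and 635 CPM. Control and *CHD4* siRNA shared nearly the same range, and both *TRPS1* siRNA libraries lay below the other 4.

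*ERBB4* was at 56.1 and 151 CPM with control siRNA, at 255 and 224 CPM with *TRPS1* siRNA and at 264 and 168 CPM with *CHD4* siRNA. The controls were the lowest of the 6 libraries, and they differed from each other by 1.43 on the log2 scale. The *TRPS1* and *CHD4* siRNA groups overlapped. In counts, *ERBB3* had between 5991 and 12639 per library, *ERBB2* between 1944 and 5696, *ERBB4* between 766 and 3411 and *EGFR* between 197 and 448, so counting error was small for all of them. Levels are not compared between receptors here, as no transcript lengths were at hand. *EGFR-AS1*, an antisense gene at *EGFR*, had at most 13 counts in any library. The counting was not stated to use strand, so its reads and those of *EGFR* cannot be told apart.

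**Figure D2:**
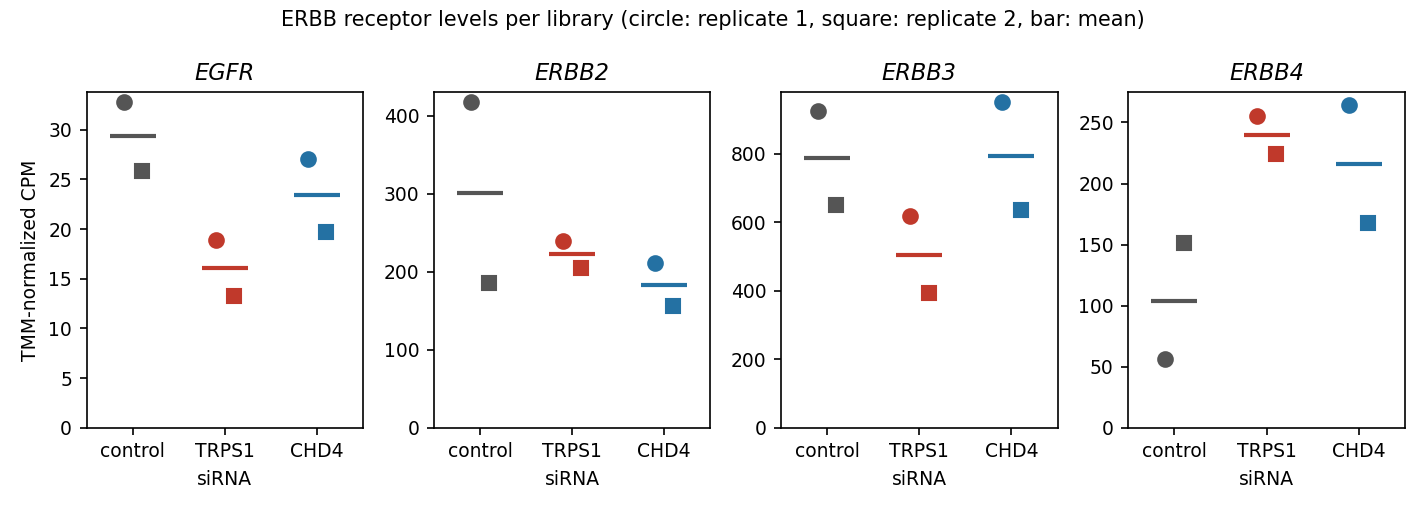
Level of each ERBB receptor in TMM-normalized CPM (y axis, 1 panel per gene, each with its own scale from 0) in cells with control, *TRPS1* or *CHD4* siRNA (circle, replicate 1; square, replicate 2; bar, mean of 2). *ERBB4* is lowest in the controls, at 56.1 and 151 CPM, *EGFR* and *ERBB3* are lowest with *TRPS1* siRNA, and control replicate 1 stands at 417 CPM for *ERBB2*.

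Silencing *TRPS1* was compared with control siRNA to ask which receptors respond to its loss. *ERBB4* was 2.32-fold higher on average, *EGFR* 1.82-fold lower and *ERBB3* 1.56-fold lower, each without overlap between the libraries of the 2 groups, and *ERBB2* was 1.35-fold lower with overlap. None of these 4 differences passed the test. Libraries that do not overlap were found for 44.1% of the 12921 genes tested, 22.5% higher and 21.6% lower, so that 3 of 4 receptors is read against this share. With 2 libraries a group, an exact permutation test cannot go below a two-sided p of 0.333.

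The log2 fold change of *ERBB4* was 1.21 ± 0.51 (SE, n = 2 against 2), with a 95% interval from -0.008 to 2.43 (edgeR quasi-likelihood test, Benjamini-Hochberg adjusted p = 0.659). *EGFR* had -0.87 ± 0.40, with an interval from -1.82 to 0.085 (edgeR adjusted p = 0.659). *ERBB3* had -0.64 ± 0.37, from -1.54 to 0.264 (edgeR adjusted p = 0.667), and *ERBB2* -0.43 ± 0.45, from -1.51 to 0.643 (edgeR adjusted p = 0.762). Across all genes, 0% passed an adjusted p under 0.05 in edgeR's quasi-likelihood test, 902 (6.98%) were under 0.05 before adjustment, and the likelihood ratio test and DESeq2 called 34 and 39 genes. The rule of the study, a fold change over 2 with unadjusted p under 0.05, was met by 5.87% of the genes, 2.70% higher and 3.17% lower, and by none of the receptors in this fit. *ERBB4* met it in 8 of 14 alternatives, among them the likelihood ratio test (adjusted p = 0.441) and DESeq2 (adjusted p = 0.339), and its adjusted p was under 0.05 in 1 of them, without control replicate 2.

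The size of these differences depended on which control library was used. Without control replicate 1, *ERBB4* was at 0.67 (edgeR adjusted p = 0.118), *EGFR* was at -0.69 (adjusted p = 0.203), *ERBB3* was at -0.36 and *ERBB2* turned to 0.27. Without control replicate 2, *ERBB4* was at 2.097, *EGFR* at -1.03, *ERBB2* at -0.91 and *ERBB3* at -0.87. In that setting the lone control library is assumed to vary like the *TRPS1* siRNA libraries, so p-values measure no spread between controls. That library, control replicate 1, had the lower *TRPS1* level of the controls, 1445 against 2269 CPM. The *TRPS1* siRNA libraries were at 1166 and 722 CPM. With each library left out in turn, the log2 fold change of *TRPS1* ranged from -1.34 to -0.61.

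Silencing *CHD4* was compared with the same control libraries. *ERBB4* was again above both controls, 2.096-fold on average, while *ERBB3* was at the control level and *EGFR* and *ERBB2* overlapped the controls. The log2 fold change of *ERBB4* was 1.07 ± 0.53, from -0.18 to 2.31 (edgeR adjusted p = 0.792). *ERBB3* had 0.02 ± 0.39, from -0.88 to 0.917 (edgeR adjusted p = 0.993), *EGFR* -0.32 ± 0.41, from -1.28 to 0.643 (edgeR adjusted p = 0.860), and *ERBB2* -0.71 ± 0.47, from -1.80 to 0.383 (edgeR adjusted p = 0.798). Libraries did not overlap for 39.8% of 12918 genes, 19.8% higher, against 1 of the 4 receptors. In edgeR's quasi-likelihood test 0% of genes had an adjusted p under 0.05, 769 (5.95%) were under 0.05 before adjustment, and the likelihood ratio test and DESeq2 called 58 and 50 genes. The study's rule was met by 5.45% of the genes, 2.60% higher and 2.85% lower, and by none of the receptors, although *ERBB4* met it in 4 of 14 alternatives, among them DESeq2 (adjusted p = 0.591). Without control replicate 1, *ERBB4* was at 0.53, *ERBB2* at 0.003, *ERBB3* at 0.30 and *EGFR* at -0.13. Without control replicate 2, *ERBB4* was at 1.956 and *ERBB2* at -1.18.

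**Figure D3:**
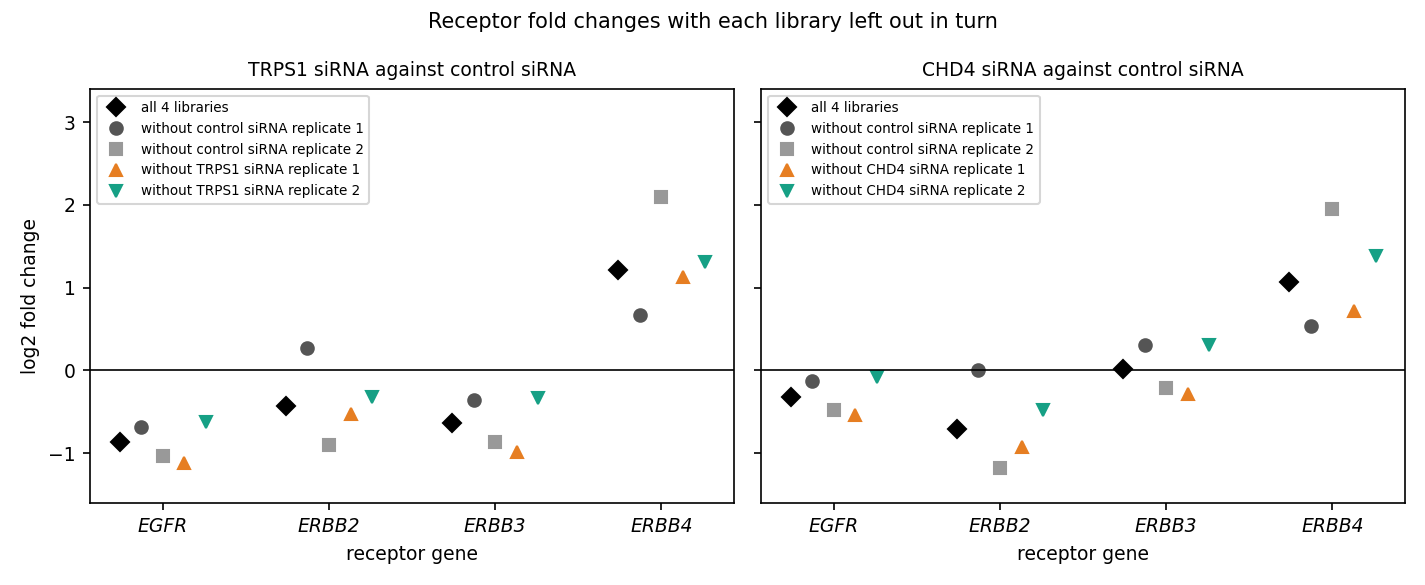
Log2 fold change (y axis) of each receptor against control siRNA with all 4 libraries of the comparison (diamonds) and with each library left out in turn (other symbols), for *TRPS1* siRNA (left) and *CHD4* siRNA (right). *ERBB4* stays above 0 throughout, between 0.67 and 2.097 on the left and between 0.53 and 1.956 on the right, and *ERBB2* moves to 0.27 and 0.003 without control replicate 1.

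Gene span moved with the difference between the 2 control libraries. The log2 ratio of control replicate 1 to replicate 2 had a median of -0.61 over 137 genes spanning over 500 kb, -0.41 over 2007 genes from 100 to 500 kb and -0.18 over 5339 genes from 20 to 100 kb, and 0.43 over 4549 genes of 20 kb or less. Spans were at hand for 93.1% of the tested genes. The same medians stayed between -0.02 and 0.23 in the *TRPS1* and *CHD4* siRNA pairs. The ratio was -1.43 for *ERBB4*, on the same side of 0 as the median of its span class. It was 1.17 for *ERBB2* and 0.51 for *ERBB3*, which belong to the class from 20 to 100 kb, and 0.34 for *EGFR*, in the class from 100 to 500 kb, so these 3 receptors lay on the other side of 0 from the medians of their classes. The part of this difference in the receptor fold changes was not tested.

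The 2 silenced conditions were then compared directly, without the control libraries. *ERBB3* was 1.58-fold and *EGFR* 1.47-fold higher with *CHD4* siRNA than with *TRPS1* siRNA, both without overlap, and *ERBB2* and *ERBB4* overlapped. The log2 difference was 0.66 ± 0.30 for *ERBB3*, from -0.07 to 1.40 (edgeR adjusted p = 0.364), and 0.55 ± 0.27 for *EGFR*, from -0.11 to 1.22 (edgeR adjusted p = 0.398). It was -0.27 ± 0.20 for *ERBB2*, from -0.76 to 0.217 (adjusted p = 0.580), and -0.14 ± 0.24 for *ERBB4*, from -0.74 to 0.459 (adjusted p = 0.845). The interval of *ERBB4* does not show that both conditions act alike. Libraries did not overlap for 46.9% of 13143 genes, 22.8% higher and 24.1% lower, against 2 of the 4 receptors. In edgeR's quasi-likelihood test 0% of genes passed an adjusted p under 0.05, 2023 (15.4%) were under 0.05 before adjustment, and the likelihood ratio test and DESeq2 called 570 and 456. The study's rule was met by 3.67% of the genes, 2.12% higher and 1.56% lower, and by none of the receptors. For *ERBB3*, the adjusted p was 0.333 with the likelihood ratio test and 0.296 with DESeq2. With the replicate number as block, *ERBB3* and *EGFR* passed an adjusted p under 0.05, as given below, but the labels do not pair these libraries. With each library left out in turn, *ERBB3* ranged from 0.33, without *CHD4* replicate 1, to 1.01, without *TRPS1* replicate 1, where it met the study's rule (edgeR adjusted p = 0.522). *EGFR* ranged from 0.30 to 0.82, without the same libraries, and did not meet it.

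**Figure D4:**
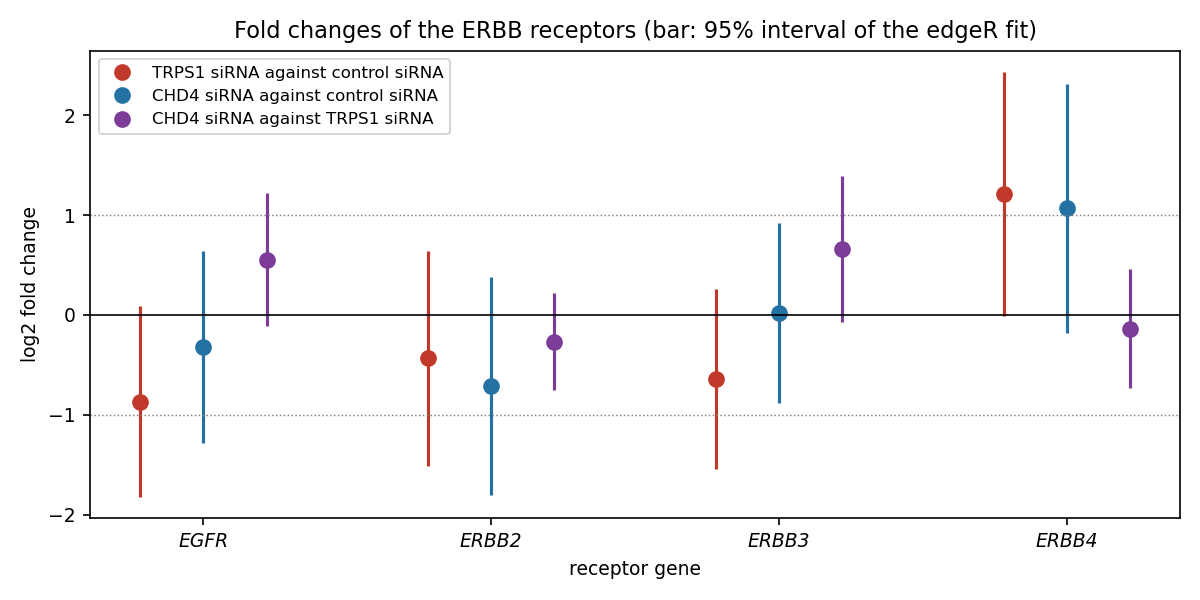
Log2 fold change (y axis) of the ERBB receptors in the 3 comparisons, with the 95% interval of the edgeR fit as a bar. Every interval includes 0, the *ERBB4* estimates lie at 1.21 and 1.07 against control siRNA and at -0.14 between the silenced conditions, and *ERBB3* and *EGFR* lie at 0.66 and 0.55 between the silenced conditions.

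*TGFA*, which encodes TGF-alpha, was the single EGFR ligand to meet the study's rule. It was at 25.1 and 23.01 CPM with control, 32.4 and 34.8 CPM with *TRPS1* siRNA and 52.5 and 44.8 CPM with *CHD4* siRNA. The 3 groups were in separate ranges. *TGFA* met the rule upon silencing *CHD4* (log2 fold change 1.02 ± 0.39, edgeR adjusted p = 0.792) but not when control replicate 2 or either *CHD4* replicate was left out (0.92 to 1.16), and its difference upon silencing *TRPS1* was 0.49 ± 0.35 (edgeR adjusted p = 0.694).

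*EGF* was at 9.23 and 24.3 CPM with control, 15.9 and 25.9 CPM with *TRPS1* siRNA and 33.2 and 31.1 CPM with *CHD4* siRNA. *AREG*, which encodes amphiregulin, was at 87.3 and 42.0 CPM with control, 62.5 and 73.2 CPM with *TRPS1* siRNA and 74.9 and 93.1 CPM with *CHD4* siRNA. *HBEGF*, which encodes heparin-binding EGF-like growth factor, ranged from 2.26 to 5.13 CPM. In the direct comparison all 4 tested EGFR ligands were higher with *CHD4* siRNA than with *TRPS1* siRNA without overlap, as were 22.8% of all genes. The log2 differences were 0.72 for *HBEGF*, 0.62 for *EGF*, 0.54 for *TGFA* and 0.31 for *AREG*, with edgeR adjusted p from 0.231 to 0.468. *EGF* met the study's rule without *TRPS1* replicate 2 (1.04) and was at 0.31 without *TRPS1* replicate 1. Against control, the differences of *EGF*, *AREG* and *HBEGF* were 0.33, 0.08 and -0.003 with *TRPS1* siRNA and 0.95, 0.39 and 0.71 with *CHD4* siRNA, and none met the study's rule with all libraries in the fit. With *CHD4* siRNA, *AREG* met it without control replicate 1 (1.02) and *EGF* without control replicate 2 (1.81). The *EGF* value was 0.42 without control replicate 1.

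Ligands of ERBB3 and ERBB4 were scarce in these cells. *NRG4*, a ligand of ERBB4, had 0 counts in control replicate 1 and 28 to 61 counts, or 2.61 to 4.89 CPM, in the other libraries, so its log2 fold changes of 0.997 and 1.36 with *TRPS1* and *CHD4* siRNA rest on a single library. *NRG1*, *NRG2* and *NRG3* had at most 3 counts per library and were not tested, and neither were *EREG*, *BTC* and *EPGN*, with at most 28 counts. For genes with 0 counts the depth allows a level of up to the detection limit of 3 counts.

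The other genes of the pathway were taken from 13 lists with 135 genes, which also contain the ligands. Upon silencing *TRPS1*, 13 of 117 tested genes (11.1%) met the study's rule, 1 higher and 12 lower, beside 5.87% of all genes, and the median log2 fold change was -0.18 against -0.02 over all genes. Upon silencing *CHD4*, 10 of 118 (8.47%) met it, 3 higher and 7 lower, beside 5.45% of all genes, with a median of -0.06. With all libraries in the fit, none of them had an edgeR adjusted p under 0.05. Without control replicate 1 the counts were 7 (3 higher, 4 lower) and 16 (9 higher, 7 lower), so the split between the directions rested on this library. They were 40 and 33 without control replicate 2, 1 without either *TRPS1* replicate and 2 without either *CHD4* replicate. Fits that leave out a silenced library keep both control libraries with their spread.

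The MAPK feedback inhibitors were the list with the lowest values upon silencing *TRPS1* beside the growth factor response genes. Of 10 tested, 4 met the study's rule, all lower, 7 were lower without overlap, and the median was -0.88. Over all genes, 3.17% met the rule in this direction and 21.6% were lower without overlap. *SPRY4*, a Sprouty inhibitor of receptor tyrosine kinase signaling, was at 6.37 and 3.92 CPM with control and 0.383 and 0.787 CPM with *TRPS1* siRNA (-3.08 ± 0.74, edgeR adjusted p = 0.659). The *TRPS1* siRNA values rest on 4 and 12 counts, the first close to the detection limit of 3 counts, so the size of this difference is uncertain. *DUSP6*, a phosphatase of ERK, was at 5.79 and 4.38 CPM with control and 1.53 and 1.51 CPM with *TRPS1* siRNA (-1.73 ± 0.60, edgeR adjusted p = 0.659). *DUSP4* and *DUSP5*, related phosphatases, had -1.46 and -1.01. For all 4 of these genes the *TRPS1* siRNA libraries lay below both controls.

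Upon silencing *CHD4*, 0 of the 10 feedback inhibitors met the study's rule in the edgeR fit, and the median was -0.54. *DUSP6* was at 3.64 and 3.21 CPM, higher than with *TRPS1* siRNA by 1.17 ± 0.35 (edgeR adjusted p = 0.214), while *SPRY4* was at 0.560 and 2.81 CPM. Without control replicate 1, *SPRY4* and *DUSP6* no longer passed the filter on low counts in the comparison of *TRPS1* siRNA with control, *DUSP4* and *DUSP5* were at -1.15 and -1.08, and 2 of 8 tested genes of the list met the rule. Without it, 1 of 10 met the rule with *CHD4* siRNA.

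Growth factor response genes had a median of -1.01 upon silencing *TRPS1* and of -0.86 upon silencing *CHD4*. The rule was met by 3 of 9 and 3 of 10 tested genes, all lower, beside 3.17% and 2.85% of all genes in this direction. *CCND1*, which encodes cyclin D1, was at 590 and 420 CPM with control, 225 and 219.5 CPM with *TRPS1* siRNA and 210.2 and 205 CPM with *CHD4* siRNA. The 4 silenced libraries lay within a narrow range, below both controls (-1.18 with an edgeR adjusted p = 0.659, and -1.28 with an adjusted p = 0.792). *PHLDA1*, a gene induced by growth factors, had -1.01 and -1.54. Both genes, without control replicate 1, missed the rule with *TRPS1* siRNA (-0.91 for *CCND1* and -0.84 for *PHLDA1*) and met it with *CHD4* siRNA (-1.0004 for *CCND1* and -1.37 for *PHLDA1*). *JUNB*, an AP-1 transcription factor, met the rule with *TRPS1* siRNA (-1.73) and *MYC* with *CHD4* siRNA (-1.63), and both values shrank without control replicate 1, to -0.20 and -0.71, since *JUNB* was at 68.9 and 14.4 CPM and *MYC* at 137 and 50.02 CPM in the controls. Without this library the medians of the list were -0.29 and -0.09, and 1 of 9 genes, higher, and 2 of 10, lower, met the rule.

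In the remaining lists, single genes met the study's rule. Over all genes, 5.87% met it with *TRPS1* siRNA and 5.45% with *CHD4* siRNA, and counts of 1 or 2 genes per list are read against these shares. *GRB2*, the adaptor that couples the receptors to RAS, was at 210.1 and 161 CPM with control and 83.1 and 77.8 CPM with *TRPS1* siRNA (-1.20 ± 0.33, edgeR adjusted p = 0.659). It was the single adaptor of 13 to do so, and it was at -0.99 without control replicate 1, short of the rule. Without that library the highest adaptor value with *TRPS1* siRNA was 2.79, against 1.27 with all libraries. In the PI3K-AKT branch, *PIK3R2*, a regulatory subunit of PI3K, had -1.02 with *TRPS1* siRNA, and *PIK3R3*, another one, and the kinase *AKT2* had -1.18 and -1.36 with *CHD4* siRNA, 1 and 2 of 11 genes. In the RAS-MAPK branch, the kinase *ARAF* had -1.27 with *TRPS1* siRNA, 1 of 9 genes, and 0 of 9 met the rule with *CHD4* siRNA. *AKT2* and *ARAF* were far higher in control replicate 1 (421 and 212 CPM) than in replicate 2 (147 and 78.2 CPM), and without it they were at -0.40 and -0.37 and missed the rule. *PIK3R2* missed it as well, at -0.57, while *PIK3R3* kept the call, at -1.09.

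*PTPN1*, a tyrosine phosphatase that acts on receptor kinases, had -1.19 with *TRPS1* siRNA and -1.53 with *CHD4* siRNA, as the single one of 15 receptor down-regulators in either comparison. It was at -0.87, short of the rule, and at -1.20, past it, without control replicate 1. *HSP90B1*, the HSP90 chaperone of the endoplasmic reticulum, was at 668 and 1006 CPM with control and between 1459 and 2067 CPM in the silenced cells (1.11 and 1.08). It was the 1 of 4 receptor chaperones to meet the rule, and missed it without control replicate 1 in both comparisons (0.85 and 0.83). *XBP1*, a transcription factor, was at 1385 and 1369 CPM in the controls and between 463 and 874 CPM in the silenced cells (-1.03 in both comparisons), 1 of 12 transcription factors known at ERBB genes, and kept the call without control replicate 1 (-1.02 and -1.01). Without that library the lowest value among these transcription factors with *TRPS1* siRNA was -1.27, in another gene. None of the 10 genes of ligand and receptor cleavage and of the 6 ERBB4 intracellular domain partners met the rule in either comparison with all libraries in the fit.

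Of 13 other receptor tyrosine kinases tested, *AXL* met the rule upon silencing *CHD4*, with 5.35 and 6.71 CPM in the controls and 16.7 and 13.3 CPM in the silenced cells (1.32 ± 0.48, edgeR adjusted p = 0.792). It was at 1.18 and met the rule without control replicate 1. In the direct comparison 2 of 117 pathway genes (1.71%) met the rule, beside 3.67% of all genes. One was *DUSP6*. The other was *FGFR3*, named after its values were seen, at 77.2 and 71.2 CPM with *CHD4* siRNA and 34.7 and 34.7 CPM with *TRPS1* siRNA (1.10 ± 0.15, edgeR adjusted p = 0.0903).

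**Figure D5:**
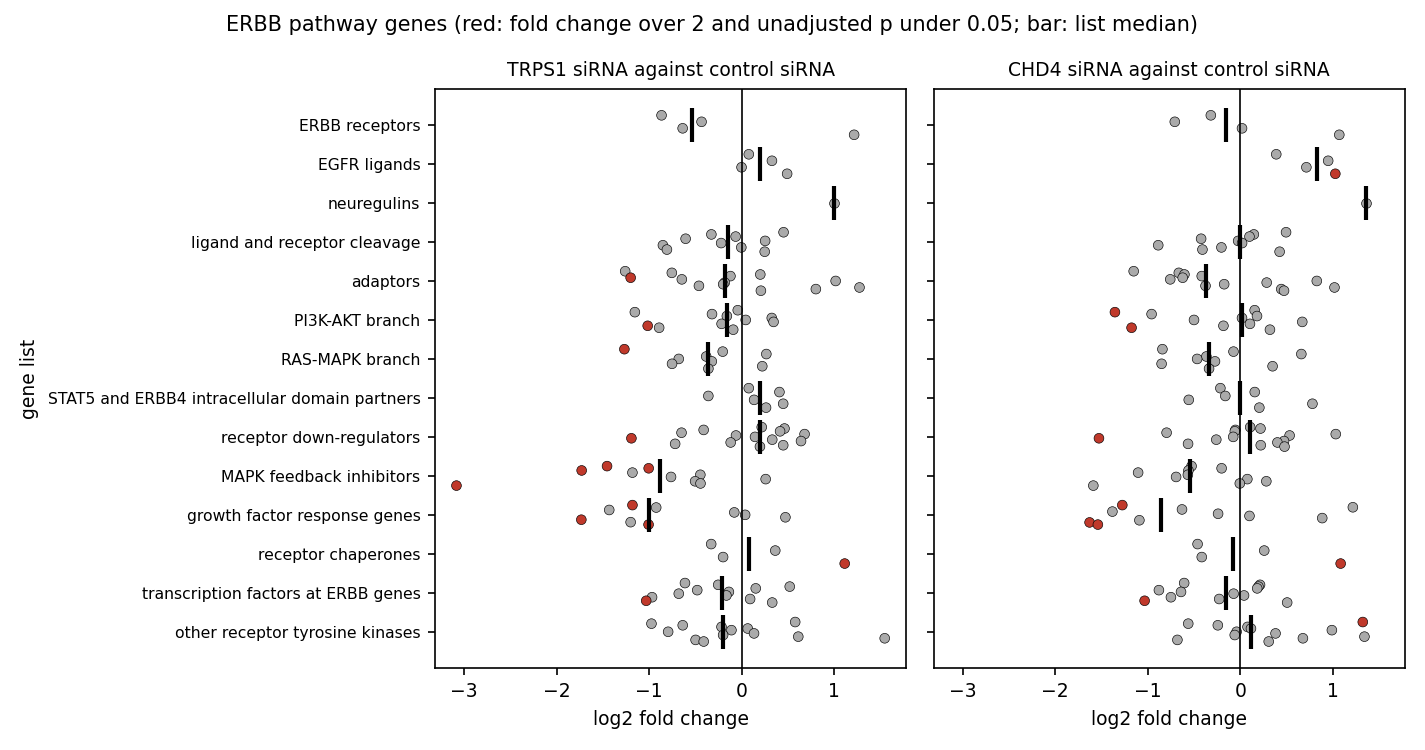
Log2 fold change (x axis) of the tested genes of each ERBB pathway list (rows) against control siRNA for *TRPS1* siRNA (left) and *CHD4* siRNA (right), where each point is a gene, black bars are list medians and red points met a fold change over 2 with unadjusted p under 0.05. The MAPK feedback inhibitors show 4 red points on the left and 0 on the right, where 8 of 10 lie below 0. *SPRY4* is lowest on the left at -3.08, from 4 and 12 counts with *TRPS1* siRNA.

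The genes whose levels followed each receptor most closely over the 6 libraries were found by the root mean square difference of mean-centred log2 CPM among 12662 genes. *EGFR* was followed by *CLPTM1L* (0.067), *MFSD5* (0.085) and *SLC1A5* (0.102), against a median of 0.558 over all genes. *ERBB2* was followed by *SLC50A1* (0.053), *RAB40C* (0.064) and *FPGS* (0.069), with a median of 0.562. *ERBB3* was followed by *ARL16* (0.073), *KAT8* (0.105) and *MFSD5* (0.107), with a median of 0.571. *MFSD5* was thus near both *EGFR* and *ERBB3*. *ERBB4* was followed by *FAM179B* (0.104), *UBLCP1* (0.114) and *USP40* (0.141), with a median of 0.829. *FAM179B* was at 16.7 and 57.3 CPM in the controls and between 54.9 and 84.9 CPM in the silenced cells. All values are measured over the same 6 libraries, including control replicate 1. The named genes were picked for their small differences, so that they lie below the median is no test.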

How the data were processed

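The 4 receptors were analysed in 6 RNA-seq libraries of T47D cells, and TRPS1 peaks came from 2 ChIP and 2 input libraries. After trimming, the authors used STAR for RNA-seq alignment and HTSeq (0.9.0 in the submitters' processing notes) for counting, and deposited raw counts per gene. Whether the counting used strand is not given in the sources used here. ChIP-seq reads were aligned with BWA (0.7.12-r1039), MACS2 (2.1.1) called the peaks, and the deposited list holds their positions in hg38, the build in the processing notes. Whether peaks were called on pooled libraries is not stated. For the *CHD4* knockdown, the labels name an siRNA and the RNA-seq methods an shRNA.

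Gene spans and upstream windows are from RefSeq (GRCh38.p14). The strand of *ERBB3*, which has no window, was set as plus from general knowledge. The *ERBB2* window is not printed because a neighboring gene overlaps it. Distances from a receptor start run to the nearest edge of a peak. Distances to the end of *ERBB4* and to the closest start of another gene run from the middle of the peak.

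Groups were compared pairwise in edgeR (4.0.16, R 4.3.3) on the deposited counts. Genes over 2 CPM in at least 2 of 4 libraries were kept, TMM factors applied and the quasi-likelihood F-test run without covariates, with a prior count of 0.125 and Benjamini-Hochberg adjustment over all genes tested. SE values were derived as |log2 fold change|/√F. The fit was tested on simulated data. CPM levels use TMM factors over all 6 libraries. Alternatives were RLE factors, library sizes alone, other filters, the likelihood ratio test, DESeq2 (1.42.0), a joint fit of all groups, the replicate number as block, a prior count of 2 and leaving out each library. Detection limits cover counting error only.

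Named genes are the receptors, *TRPS1*, *CHD4*, every ligand, up to 4 genes per other list that met the study's rule against control, and the 3 genes nearest in pattern to each receptor. The members and the lists were chosen with earlier results of these data known. Figures were drawn with matplotlib 3.10.9 in Python 3.11.15.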

Additional observations from a re-analysis of the deposited data

How the results depend on the processing

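The direction of *EGFR* against control, of *ERBB3* and *ERBB4* against control upon silencing *TRPS1*, and of *ERBB4* upon silencing *CHD4* was kept in every alternative, with *ERBB4* between 0.67 and 2.097 and between 0.53 and 1.956 on the log2 scale. It turned for *ERBB2*, to 0.27 (*TRPS1* siRNA) and 0.0032 (*CHD4* siRNA) without control replicate 1, and for *ERBB3* with *CHD4* siRNA, to -0.0043 with a filter of over 0.5 CPM, -0.21 without control replicate 2 and -0.28 without *CHD4* replicate 1. In the direct comparison *ERBB4* turned to 0.17 without *CHD4* replicate 2. With a library left out, *TRPS1* siRNA against control ranged from -1.12 to -0.62 (*EGFR*), -0.91 to 0.27 (*ERBB2*) and -0.98 to -0.34 (*ERBB3*), and *CHD4* siRNA against control from -1.18 to 0.0032 (*ERBB2*), -0.28 to 0.31 (*ERBB3*) and -0.54 to -0.083 (*EGFR*). In the direct comparison *ERBB2* ranged from -0.51 to -0.055 and *ERBB4* from -0.51 to 0.17. The cause was not tested.

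Counts of genes at an adjusted p under 0.05, 0 in all 3 main comparisons, became 34, 58 and 570 with the likelihood ratio test and 39, 50 and 456 with DESeq2 (*TRPS1*, *CHD4*, direct), and 111 and 424 without a filter (*CHD4*, direct). With a library left out they ranged from 0 to 6070, 0 to 3874 and 0 to 103. Counts by fold change over 2 and unadjusted p under 0.05 became 1359, 1403 and 751 without a filter, and in the direct comparison 313 with over 2 CPM in every library and 320 with all 6 libraries in one fit. With a library left out they ranged from 74 to 4304 (*TRPS1*) and 91 to 3969 (*CHD4*), and pathway genes from 1 to 40 and 2 to 33. With a window of 50 kb, 2 peaks lay at the *ERBB3* start in place of 1.

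Of the ligands against control with *TRPS1* siRNA, *HBEGF* turned to 0.13 with library sizes alone, 0.052 with over 2 CPM in every library and 0.012 with the replicate block, and from -0.19 to 0.22 with a library left out, *EGF* ranged from -0.20 to 1.19, *AREG* from -0.36 to 0.70 and *NRG4* from -0.00063 to 8.27. With *CHD4* siRNA, *AREG* ranged from -0.043 to 1.02, *EGF* from 0.42 to 1.81 and *HBEGF* from 0.42 to 0.99, and in the direct comparison *NRG4* from -0.14 to 0.74.

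Replicate numbers do not pair these libraries by the labels, and deviations of same-numbered libraries correlated at 0.051 (control and *TRPS1* siRNA), 0.010 (control and *CHD4* siRNA) and 0.615 (*TRPS1* and *CHD4* siRNA). A replicate block gave 32, 44 and 3372 genes at an adjusted p under 0.05 and 1221 by the study's rule with *TRPS1* siRNA. In the direct comparison it put *EGFR* at 0.55 (edgeR adjusted p = 0.00817) and *ERBB3* at 0.67 (adjusted p = 4.4e-06), and it made no other receptor pass an adjusted p under 0.05. Of the ligands there, the block put *EGF* at 0.64 (adjusted p = 0.00047), *TGFA* at 0.53 (adjusted p = 0.00088) and *AREG* at 0.31 (adjusted p = 0.0412), and *HBEGF* and *NRG4* did not pass. It also put the pathway gene *DUSP6* at 1.16 (adjusted p = 0.0126) and *FGFR3* at 1.10 (adjusted p = 1.4e-15). Levels per coding length, planned as an alternative to exon length, were not run because neither length was at hand. Peak heights were not at hand, and each group has 2 libraries.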
